A study of Mus musculus with 6 samples.

Results

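Of 8110 protein-coding genes with at least 2 CPM in each of 3 wild-type (WT) libraries of mouse microglia, 54 were left at 1/30 of their WT mean or less in 3 libraries labelled IRF8KO. CPM is a gene's count scaled to a library total of 1000000 counts, Apoe left out. The members were chosen by these CPM values in all 6 libraries. The limits took 62 genes, of which Sall1, Upk1b, Tlr12, Haao and 4 solute carriers were left out by the rule. The files list 49585 genes in all. Since the same counts chose the members, their falls are described below, and nothing is read from any test of them.

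Microglia are the resident macrophages of the brain, and IRF8 is an interferon regulatory factor that controls transcription in macrophages, dendritic cells and B cells. It binds DNA weakly alone and joins partners such as PU.1, an ETS family factor, on composite elements, or binds repeats of GAAA. The transcripts followed here belong to no single pathway. They encode extracellular protease inhibitors and matrix proteins, surface receptors and channels, and immune proteins known from lymphocytes and other leukocytes. Others encode nuclear factors, cytoskeletal and junction proteins, and enzymes.

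The 6 libraries came from male mice aged 3 months, 3 of genotype WT and 3 of genotype IRF8KO, with cells taken from each brain without enzymes and sorted by flow cytometry. The labels give no strain, and they do not say how or in which cells Irf8 was deleted. Polyadenylated RNA was copied to full-length cDNA with the SMART-Seq v4 kit and tagged with Nextera XT, a chemistry without strand information or molecular identifiers, so counting intervals cover counting error only. Library totals, markers and libraries that stand apart are given next, before the members.

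Gene counts summed to between 3658917 and 11098363 per library, and Apoe took 0.154% to 0.324% of them in WT and 25.5% to 33.7% in IRF8KO. Irf8 itself had 1119, 1109 and 1289 CPM in WT and 776, 893 and 981 CPM in IRF8KO, which leaves each direction below resting on the labels, since whole-gene counts cannot show a lost exon. All 12 microglial markers were counted in WT and 11 in IRF8KO, where Sall1 had 0 counts, and their sum spanned 63757 to 71056 CPM in WT and 49179 to 56008 CPM in IRF8KO, with Csf1r and Tmem119 the main part in WT. Of the 12, 5 were called lower and 1 higher (edgeR), and P2ry12, a purinergic receptor, fell, with 1422, 1464 and 377 CPM in WT and 25.2, 138 and 24.3 CPM in IRF8KO. Border-associated macrophage markers summed to 776 to 869 CPM in WT and 5396 to 5460 CPM in IRF8KO, and all 10 of them that were tested were higher (edgeR). Most of the WT sum was Stab1, at 848, 848 and 756 CPM, while Pf4 had 1.1, 2.58 and 2.41 CPM in WT and 2024, 2110.0 and 2506 CPM in IRF8KO. WT replicate 3 differed from WT replicates 1 and 2 for many members, as given below. Astrocyte markers summed to 16.3 to 109 CPM in WT and 201 to 293 CPM in IRF8KO, with 5 of 8 tested higher (edgeR). Of the neutrophil markers, Csf3r, which was not called, had 916, 952 and 918 CPM in WT and 1342, 1367 and 1003 CPM in IRF8KO, and the other 11 had at most 1.14 CPM in WT. Red blood cell markers summed to 0, 0 and 53.0 CPM in WT replicates 1, 2 and 3 and 56.2 to 504 CPM in IRF8KO. The part of these cells in the members' levels was not tested. IRF8KO replicate 2 held transcripts of granulocytes and monocytes: S100a8 had 0.839, 166 and 0 CPM in IRF8KO replicates 1, 2 and 3, and Ngp had 0, 109 and 0. Monocyte markers summed to 0.76 to 3.29 CPM in WT and to 16.3, 103 and 14.5 CPM in IRF8KO replicates 1, 2 and 3. Of the 12 monocyte markers, 2 were tested and both were higher (edgeR). With the same genes left out, the rule gave 96 genes in place of 54 without WT replicate 3, 52 of the 54 among them (Notch4 and Fcrlb were lost), and 87 without IRF8KO replicate 2, 51 of the 54 among them (Fcrlb, Ildr1 and Sh2d6 were lost). In these bulk samples, fewer cells of a type and less RNA per cell cannot be told apart.

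Summed over the members, WT replicates 1, 2 and 3 had 3690, 4371 and 2336 CPM and IRF8KO replicates 1, 2 and 3 had 21.3, 41.4 and 34.3 CPM. Without Egr1, which varied most among WT libraries, the sums were 2917, 2794 and 2325 CPM in WT and 16.3, 33.8 and 29.5 CPM in IRF8KO. Of the 54 members, 19 had 0 counts in all IRF8KO libraries, 13 had 1 to 3 counts over the group and 22 had more. The lowest WT library lay above the highest IRF8KO library for all 54, where 15.0% of the 11041 tested genes showed that order, and the rule all but fixes that separation. In 47 members the gap was at least 10-fold or the IRF8KO libraries were at 0. All 54 members passed the filter on low counts, which they could pass through the WT libraries alone, and all were called by the quasi-likelihood test of edgeR, with p-values adjusted after Benjamini and Hochberg and a threshold of 0.05, as for every adjusted p below, where 19.1% of all tested genes were called. Over all tested genes, 1045 were lower and 1064 higher, and 1908 were lower and 651 higher when libraries were scaled by their totals alone, Apoe included, which moved the median log2 change of all tested genes from −0.11 to −0.61. The rule used this contrast, so nothing is read from either count.

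**Figure D1:**
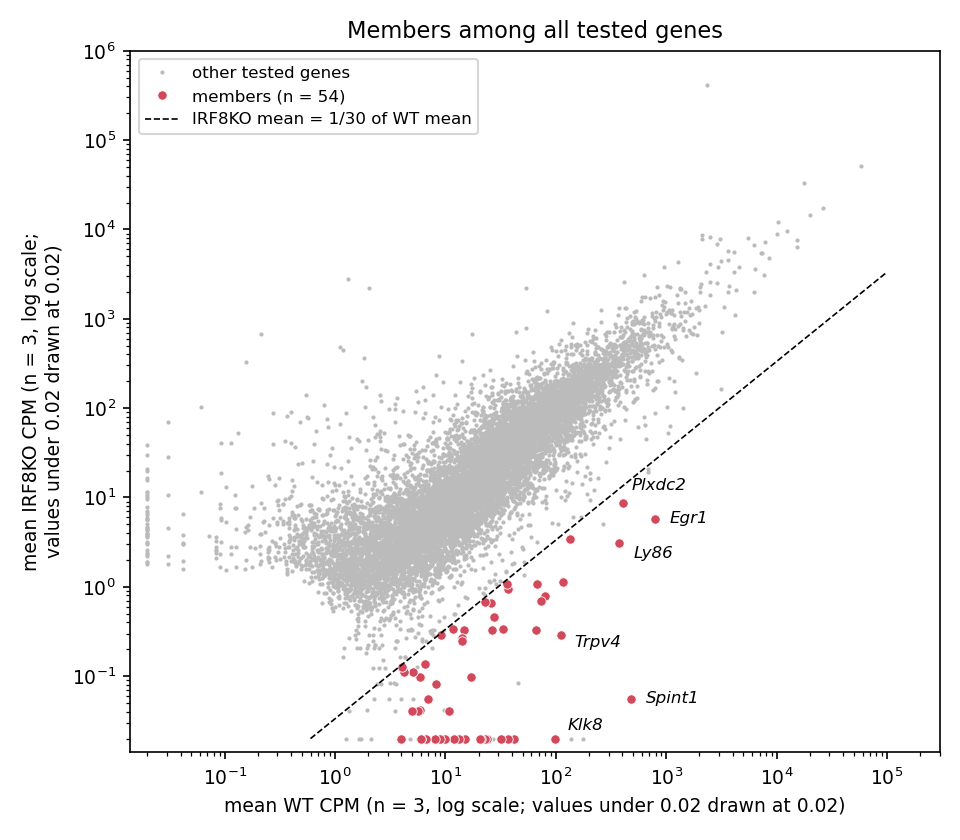
Mean CPM of each tested gene in WT (horizontal) and IRF8KO (vertical), both on log scales with n = 3 libraries per group; values under 0.02 are drawn at 0.02. The 54 members (red) lie on or below the dashed line at 1/30 of the WT mean, with 19 of them at the bottom edge.

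Sequence at the members' start sites was read next, as the place where IRF8 and its partners could bind. RefSeq windows (GRCm38.p6, 250 bases before to 50 after a start site) were matched by symbol for 44 of the 54 members, which had 52 windows. The composite ETS-IRF letters, GGAA and GAAA with any 2 bases between them, searched on both strands, stood in 1 of 52 member windows (1.92%) and in 2.72% of all 32851 windows. The IRF repeat, GAAA and GAAA with any 2 bases between them, which can overlap the first motif, stood in 2 member windows (3.85%) and in 3.44% of all windows. The AP-1 letters TGANTCA stood in 6 member windows (11.5%) and in 7.81% of all windows. Overlapping windows of Tnfsf13b hold the same AP-1 site and were both counted. By gene, the AP-1 letters stood in 5 of 44 members (11.4%) and in 8.97% of 27025 genes. A match or its absence says nothing of binding. The windows with IRF letters, of 3 members, are shown with that of Spint1, the member with the largest ratio among those with an IRF8KO count. Capitals mark every match to the 3 motifs: the ETS-IRF letters in Pdcd1, the IRF repeat in Tnfrsf17, AP-1 letters and then the IRF repeat in Tnfsf13b, and AP-1 letters in Spint1. The windows are chr1:94052504-94052803 on the minus strand, chr16:11313559-11313858, chr8:10006383-10006682 and chr2:119237110-119237409 on the plus strand, each written 5′ to 3′ along its gene.
Pdcd1: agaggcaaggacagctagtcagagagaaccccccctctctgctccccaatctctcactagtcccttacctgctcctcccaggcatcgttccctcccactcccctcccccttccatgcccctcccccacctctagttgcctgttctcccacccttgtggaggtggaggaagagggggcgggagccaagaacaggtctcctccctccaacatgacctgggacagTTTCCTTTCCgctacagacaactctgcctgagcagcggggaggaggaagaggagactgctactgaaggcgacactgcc
Tnfrsf17: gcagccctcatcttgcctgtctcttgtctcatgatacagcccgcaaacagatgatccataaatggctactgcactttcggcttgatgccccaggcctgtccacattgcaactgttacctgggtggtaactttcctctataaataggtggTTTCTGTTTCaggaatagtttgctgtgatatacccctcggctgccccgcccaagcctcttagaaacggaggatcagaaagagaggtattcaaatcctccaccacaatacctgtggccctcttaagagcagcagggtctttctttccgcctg
Tnfsf13b: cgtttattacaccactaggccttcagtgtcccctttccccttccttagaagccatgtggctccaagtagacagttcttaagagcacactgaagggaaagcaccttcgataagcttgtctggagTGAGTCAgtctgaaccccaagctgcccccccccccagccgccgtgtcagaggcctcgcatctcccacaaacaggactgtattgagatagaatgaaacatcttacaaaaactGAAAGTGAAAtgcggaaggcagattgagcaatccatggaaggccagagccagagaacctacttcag
Spint1: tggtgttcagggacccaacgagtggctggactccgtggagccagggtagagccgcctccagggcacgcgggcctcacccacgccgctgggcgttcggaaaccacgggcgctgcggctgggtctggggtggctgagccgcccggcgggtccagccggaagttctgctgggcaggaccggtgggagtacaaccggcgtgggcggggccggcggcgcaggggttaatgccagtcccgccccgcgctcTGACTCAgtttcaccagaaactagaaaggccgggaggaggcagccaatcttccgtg

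The group of extracellular proteolysis and matrix held 11 members, 5 of them with 0 counts in IRF8KO. Spint1 (chr2:119237362-119249527, plus strand) encodes a membrane-anchored Kunitz-type inhibitor of serine proteases such as matriptase and the hepatocyte growth factor activator. It had 468, 390.5 and 577 CPM in WT replicates 1, 2 and 3 and 0.168, 0 and 0 CPM in IRF8KO replicates 1, 2 and 3. Its 10492 WT counts stood against 1 IRF8KO count, a scaled ratio of 10339 (exact 95% counting interval 1855 to 408411). The 3 WT libraries were alike, and the transcript was all but missing from each IRF8KO library. Klk8 (chr7:43797577-43803826, plus strand), the secreted serine protease neuropsin, had 92.6, 97.7 and 106 CPM in WT and 0 counts in IRF8KO, at least 734-fold lower against a floor of 3 counts over the group. Its WT libraries were among the closest to each other of any member, with a ratio of highest to lowest of 1.15. Exons of another gene cover 24.8% of its exonic length.

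Matrix-modifying enzymes and matrix proteins followed. P3h2 (chr16:25959288-26105784, minus strand), a prolyl 3-hydroxylase of basement-membrane collagen, had 50.9, 48.5 and 25.5 CPM in WT and 0 counts in IRF8KO, at least 299.9-fold lower. Npnt (chr3:132881745-132950291, minus strand) encodes nephronectin, a basement-membrane ligand of integrin alpha 8 beta 1, and had 52.6, 39.9 and 19.1 CPM in WT and 0 counts in IRF8KO, at least 255-fold lower. In both genes WT replicate 3 was the lowest WT library. Postn, a secreted matrix protein of fibroblasts and bone, had 4.93, 4.43 and 2.53 CPM in WT, and Mmp28, a secreted metalloproteinase, had 5.75, 5.26 and 6.97. Both had 0 counts in IRF8KO, at least 28.2-fold and 43.7-fold lower. These are low levels, and the Postn bound rests on 86 WT counts.

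Mrc2, the collagen uptake receptor Endo180, had 35.3, 43.1 and 118 CPM in WT and 0, 0.986 and 0 CPM in IRF8KO. Chst8, a Golgi sulfotransferase that acts on N-acetylgalactosamine of glycoproteins, had 40.8, 60.9 and 119.8 CPM in WT and 0, 2.1 and 0 CPM in IRF8KO. For both, WT replicate 3 was the highest WT library and every IRF8KO count lay in replicate 2. Scube1, a secreted and surface glycoprotein, was 53.7-fold lower by means, and Adamts16 and Mmp23, both metalloproteinases, had 2 counts and 1 count in IRF8KO. The scaled ratio of Adamts16 was 92.1 (exact 95% counting interval 25.2 to 766) and that of Mmp23 was 124 (exact 95% counting interval 21.9 to 4943).

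**Figure D2:**
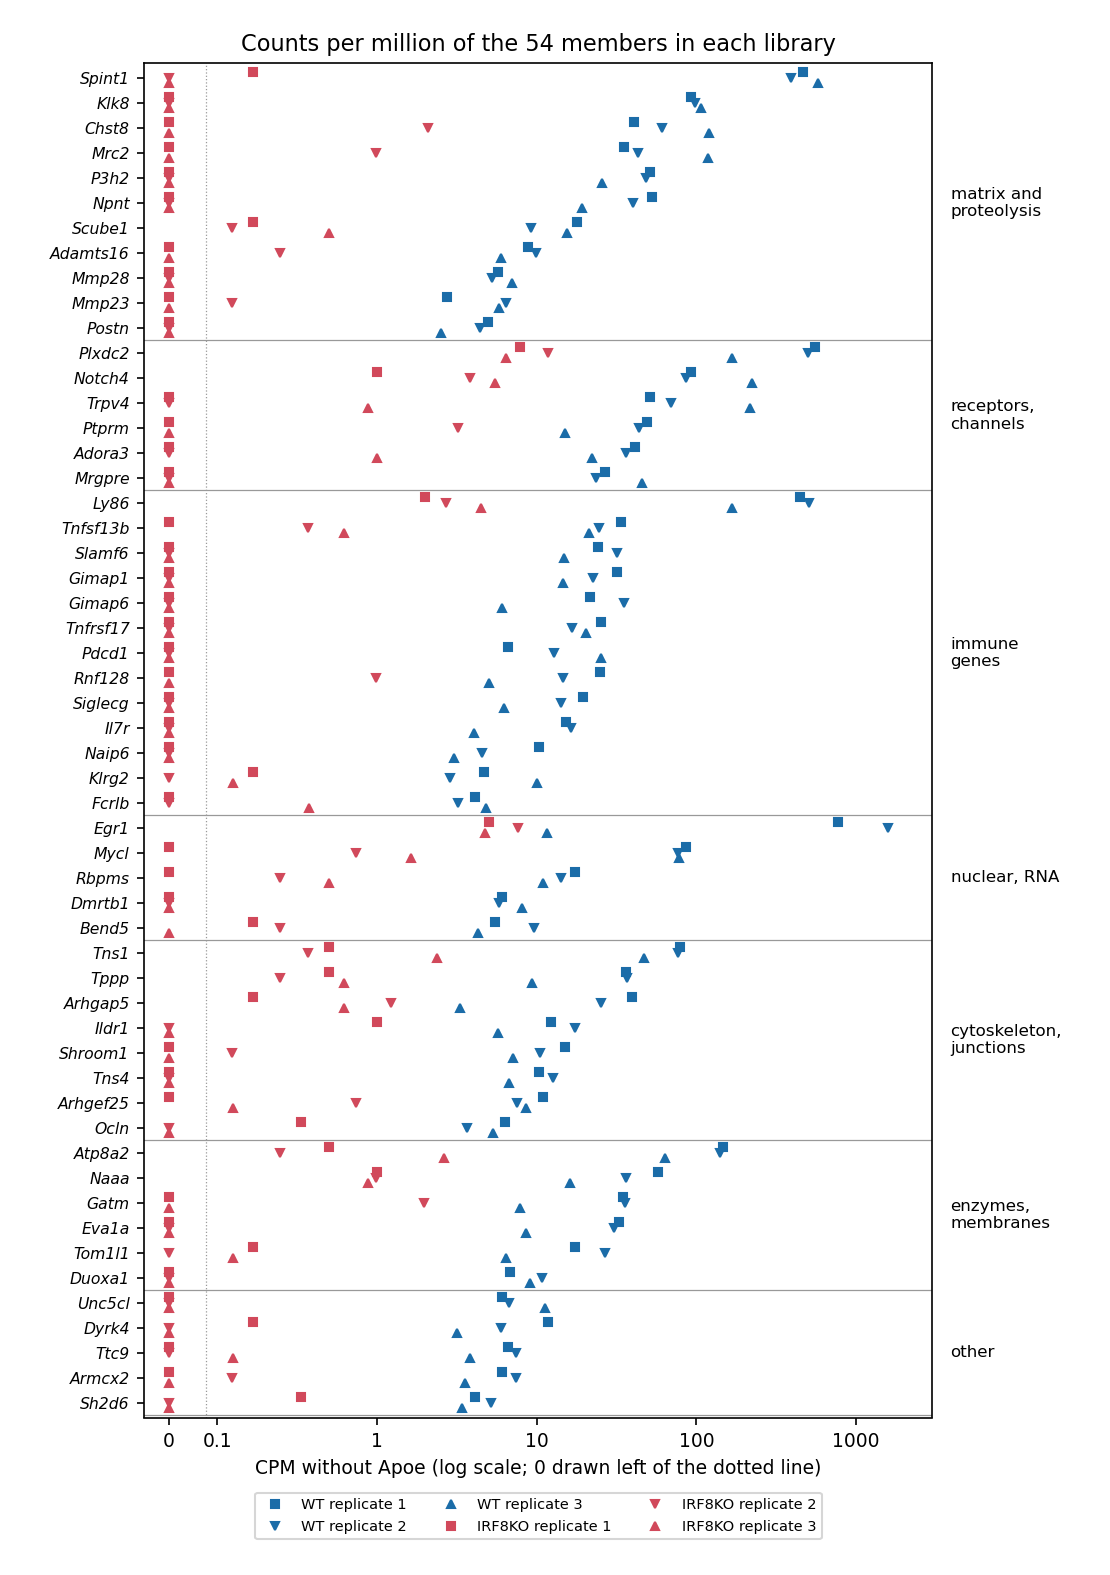
CPM of the 54 members in each of the 6 libraries (WT blue, IRF8KO red; squares, downward and upward triangles are replicates 1, 2 and 3), ordered by role and by WT mean, on a log scale with 0 at the left. No IRF8KO point of a member lies above its WT points; the narrowest gap is that of Egr1, where WT replicate 3 is at 11.7 and IRF8KO replicate 2 at 7.64.

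The partners of these proteins were read from the same fit across all genes, from lists chosen with earlier results known. St14, the gene of matriptase, had 78.1, 79.0 and 170.5 CPM in WT and 156, 96.2 and 148 CPM in IRF8KO and was not called, with a log2 fold change of 0.20 (SE 0.46) and an adjusted p of 0.79 (edgeR). Spint2, the sister inhibitor of Spint1, stayed at or under 2.52 CPM in every library and was not tested. Of the other 18 genes of pericellular serine proteases and inhibitors, 5 were tested, 1 was lower and 1 higher, where 9.46% of all tested genes were lower and 9.64% higher. Serpine2, an inhibitor of thrombin and plasminogen activators, fell from 649.8 ± 197 to 45.2 ± 5.95 CPM (SD, n = 3), and Plaur, the urokinase receptor, rose from 52.9 ± 2.68 to 158 ± 34.0 CPM. On the log2 scale Serpine2 changed by −3.80 (SE 0.30) at an adjusted p of 1.1e-05, and Plaur by 1.57 (SE 0.33) at 0.0063 (edgeR). Both kept their calls without any 1 library. The higher genes numbered 2 without IRF8KO replicate 2 or WT replicate 3.

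Relatives of P3h2 had overlapping groups. P3h1 had 17.3, 26.6 and 39.1 CPM in WT and 27.0, 35.5 and 34.5 CPM in IRF8KO, and P3h3 had 24.4, 23.8 and 27.1 and 24.3, 25.8 and 19.6 CPM. Neither was called, with log2 fold changes of 0.11 (SE 0.42) and −0.14 (SE 0.35) (edgeR, adjusted p of 0.88 and 0.81). Itga8, the alpha chain of the receptor for nephronectin, had at most 0.25 CPM in any library. Of the other 23 collagen and basement-membrane genes, 13 were tested, 2 were lower (Itgb1 and P4ha1) and 3 higher (Crtap, P4ha2 and Serpinh1), against 9.46% lower and 9.64% higher among all tested genes. Serpinh1, a collagen chaperone, had 0.274, 0 and 0 CPM in WT and 12.6, 3.82 and 6.51 CPM in IRF8KO and kept its call without any 1 library. The other 4 each lost it in at least 3 of the 6 fits that left out a library, with adjusted p up to 0.198 for Itgb1 and 0.194 for P4ha2 (edgeR). The number of lower genes was 0 without WT replicate 1 or 2 or IRF8KO replicate 1 or 3, and the number of higher genes was 1 without IRF8KO replicate 1 or 3 or WT replicate 2 and 5 without WT replicate 3.

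Surface receptors and channels made up 6 members. Plxdc2 (chr2:16356304-16755839, plus strand), a membrane protein with a plexin-like domain, had 554, 499.8 and 167 CPM in WT and 7.88, 11.8 and 6.38 CPM in IRF8KO. It kept the highest level of any member in IRF8KO on the CPM scale, with counts in all 3 libraries, and was 46.8-fold lower by means. Its relative Plxdc1 fell from 334 ± 104 to 72.6 ± 16.5 CPM (SD, n = 3), which is a log2 change of −2.26 (SE 0.41) with an adjusted p of 0.0029 (edgeR). The difference between the 2 changes was not tested. Notch4, a Notch receptor best known from endothelium, had 93.1, 86.0 and 224 CPM in WT and 1.01, 3.82 and 5.51 CPM in IRF8KO, 39.0-fold lower by means. Notch1 and Notch2 were not called: Notch1 had 60.0, 52.7 and 28.8 CPM in WT and 70.8, 72.1 and 69.8 CPM in IRF8KO.

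Trpv4 (chr5:114622152-114658421, minus strand), a calcium-permeable channel opened by warmth and osmotic swelling, had 50.9, 69.8 and 215 CPM in WT and 0, 0 and 0.876 CPM in IRF8KO. WT replicate 3 was the highest WT library, and all 7 IRF8KO counts lay in replicate 3. Its relative Trpv2 had 312, 278 and 386 CPM in WT and 208, 252 and 260.1 CPM in IRF8KO and was not called (edgeR, adjusted p = 0.31). Adora3, the A3 adenosine receptor, had 41.4, 36.4 and 22.2 CPM in WT and 0, 0 and 1.00 CPM in IRF8KO. Exons of another gene cover 20.9% of Adora3, so its counts are uncertain. Mrgpre, an orphan receptor of the Mas-related family known from sensory neurons, had 26.8, 23.5 and 45.9 CPM in WT and 0 counts in IRF8KO, at least 235-fold lower. Ptprm, a receptor phosphatase of cell contacts, had 49.0, 43.6 and 14.9 CPM in WT, and its 26 IRF8KO counts lay in replicate 2 alone, at 3.21 CPM.

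Immune genes known from lymphocytes and other leukocytes were the largest group by number, with 13 members, and 8 of them had 0 counts in IRF8KO. Ly86 (chr13:37345208-37419036, plus strand), or MD-1, pairs with the Toll-like receptor homologue RP105. It had 442, 509.6 and 166 CPM in WT and 2.01, 2.71 and 4.51 CPM in IRF8KO, 121-fold lower by means. Cd180, the gene of RP105, named here after its values were seen, fell from 15.4 ± 7.78 to 4.80 ± 1.78 CPM (SD, n = 3), which is a log2 change of −1.62 (SE 0.50) with an adjusted p of 0.040 (edgeR). The difference between the 2 changes was not tested.

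A ligand and a receptor of the BAFF system were both in the set. Tnfsf13b (chr8:10006467-10039072, plus strand), the B cell survival factor BAFF, had 34.0, 24.7 and 21.3 CPM in WT and 0, 0.37 and 0.626 CPM in IRF8KO, 80.3-fold lower by means. Tnfrsf17 (chr16:11313812-11320074, plus strand), or BCMA, a receptor for BAFF and APRIL known from plasma cells, had 25.2, 16.6 and 20.3 CPM in WT and 0 counts in IRF8KO, at least 142-fold lower. WT libraries were close to each other in both genes. Tnfrsf13b, or TACI, the sister receptor of Tnfrsf17, had 162, 123 and 78.9 CPM in WT and 87.9, 105 and 70.7 CPM in IRF8KO, with overlapping groups, and was not called (log2 fold change −0.42 (SE 0.27), edgeR, adjusted p = 0.3).

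Further lymphocyte receptors had 0 counts in IRF8KO. Slamf6, an adhesion and signalling receptor of T, B and natural killer cells, had 24.4, 31.7 and 14.8 CPM in WT, at least 181-fold above IRF8KO. Pdcd1 (chr1:94038305-94052553, minus strand), the inhibitory receptor PD-1, had 6.57, 12.9 and 25.2 CPM in WT, at least 119-fold above IRF8KO, with the highest value in WT replicate 3. Siglecg, an inhibitory sialic-acid receptor of B cells, had 19.4, 14.3 and 6.21 CPM, and Il7r, the interleukin 7 receptor alpha chain, had 15.3, 16.4 and 4.05. In Siglecg and Il7r WT replicate 3 was the lowest WT library, and IRF8KO was at least 90.3-fold and 87.4-fold lower. Gimap1 and Gimap6, GTPases that support lymphocyte survival, had 31.8, 22.4 and 14.7 and 21.6, 35.1 and 6.08 CPM in WT. They lie 30.8 kb apart on chromosome 6 and were at least 156-fold and 167-fold lower, and exons of another gene cover 36.0% of Gimap1. Naip6, of the family of NLR proteins that sense bacterial proteins, had 10.4, 4.52 and 3.04 CPM in WT. Similar Naip copies leave its counts uncertain, though that similarity was not measured.

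The remaining immune members kept a few counts. Rnf128, a ubiquitin ligase linked to T cell anergy, had 24.9, 14.6 and 5.07 CPM in WT, and its 8 IRF8KO counts were all in replicate 2. Klrg2 and Fcrlb, a lectin-like and an Fc receptor-like gene, had 2 and 3 counts in IRF8KO, with scaled ratios of 62.6 (exact 95% counting interval 17.0 to 522) and 28.9 (exact 95% counting interval 9.57 to 143). Of the 13 members with 1 to 3 IRF8KO counts, 10 had a lower interval bound under the limit of 30, these 2 included.

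Markers of lymphocytes were partly at 0 and partly counted. Among 12 B cell markers, Ms4a1, Igkc, Pax5, Blk and Fcmr had 0 counts in all 6 libraries, and the list summed to 103 to 119 CPM in WT and 22.5 to 42.8 CPM in IRF8KO. Most of the sum in WT was Cd79b, at 91.5, 79.7 and 93.6 CPM in WT and 21.1, 21.2 and 18.3 CPM in IRF8KO. Ighd, an immunoglobulin heavy chain gene, had 13.2, 8.67 and 7.09 CPM in WT and 0, 0 and 0.125 CPM in IRF8KO, and both genes were called lower (edgeR). Bank1, a B cell adaptor that was not called, had 13.4, 20.9 and 1.9 CPM in WT and 3.5 to 21.1 CPM in IRF8KO. Of 12 T and natural killer cell markers, Cd3e, Cd3g, Cd8a, Ncr1 and Gzma had 0 counts in all 6 libraries, and the list summed to at most 2.12 CPM in WT and to 4.36 to 7.89 CPM in IRF8KO. Most of the IRF8KO sum was Cd4, which macrophages can also express, at 0 counts in WT and 4.36, 4.56 and 5.13 CPM in IRF8KO, the single gene of that list that was tested. The part of lymphocyte RNA in the levels of the immune members was not tested.

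Several dendritic cell genes need IRF8 in that lineage. The set holds 1 gene of that list, Naaa, a lysosomal amidase of lipid amides, at 57.2, 36.2 and 16.1 CPM in WT and 1.01, 0.986 and 0.876 CPM in IRF8KO. Of the other 14 genes of the IRF8-dependent list, 8 were tested, 2 were lower and 2 higher, where 9.46% of all tested genes were lower and 9.64% higher. Batf3, a transcription factor, had 29.6, 30.5 and 22.7 CPM in WT and 0, 0.863 and 2.75 CPM in IRF8KO (log2 fold change −4.44 (SE 0.78)). Zbtb46 and Wdfy4 rose, with log2 fold changes of 2.49 (SE 0.40) and 1.17 (SE 0.27). Adjusted p of these 3 were 0.0025, 0.0014 and 0.011 (edgeR). Wdfy4 lost its call without IRF8KO replicate 1 or WT replicate 2. The count of lower genes was 1 without IRF8KO replicate 3 or WT replicate 2, and that of higher genes was 1 without IRF8KO replicate 1 or WT replicate 2. Of 12 dendritic cell markers, Clec9a, Cd209a and Ccr7 had 0 counts in all 6 libraries and others were counted. Itgae, which was not called, had 3.29, 6.83 and 2.28 CPM in WT and 1.68, 0.616 and 1.38 CPM in IRF8KO, Flt3 had 0.548, 2.21 and 0.633 and 0.839, 0.616 and 1.13 CPM, and Siglech, which microglia also express, had 1544, 1529 and 1277 and 1139, 1184 and 1244 CPM.

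Nuclear and RNA-binding factors gave 5 members. Egr1 (chr18:34859823-34864984, plus strand), an immediate early transcription factor, had 773, 1577 and 11.7 CPM in WT and 5.03, 7.64 and 4.76 CPM in IRF8KO. WT replicate 3 lay far below the other WT libraries and only 1.52 times above the highest IRF8KO library, so that its 135-fold gap of means rests on WT replicates 1 and 2. Against WT replicate 3 alone the gap was 2.01-fold. When WT replicate 3 was left out, the rule also gave Fos, Fosb and Egr2, further immediate early genes named after their values were seen. Egr2, its relative, had 43.8, 110.0 and 0 CPM in WT and 0, 1.97 and 2.13 CPM in IRF8KO, with WT replicate 3 at 0, and kept its call in 2 of the 6 fits that left out a library. Mycl (chr4:122995652-123002485, plus strand), a member of the MYC family that IRF8-dependent dendritic cells also express, had 86.6, 76.9 and 77.8 CPM in WT and 0, 0.74 and 1.63 CPM in IRF8KO. Its WT libraries differed by a ratio of highest to lowest of 1.13, the smallest of any member. Dmrtb1, a DM-domain factor known from germ cells, had 6.03, 5.81 and 8.11 CPM in WT and 0 counts in IRF8KO, and Rbpms, an RNA-binding protein, was 56.7-fold lower by means. Bend5 had 3 counts in IRF8KO and a scaled ratio of 52.2 (exact 95% counting interval 17.6 to 256).

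Cytoskeletal, adhesion and junction proteins gave 8 members. Tns1, a tensin that ties integrins to actin, had 79.4, 76.7 and 47.0 CPM in WT and 0.503, 0.37 and 2.38 CPM in IRF8KO, and Tns4 had 10.4, 12.7 and 6.71 CPM in WT and 0 counts in IRF8KO. Of the other tensins, Tns3 fell, with a log2 fold change of −1.55 (SE 0.41) (edgeR, adjusted p = 0.02), and lost its call in 3 of the 6 fits that left out a library. Tns2 was not called. Tppp, a tubulin-binding protein of oligodendrocytes, had 36.2, 36.9 and 9.37 CPM in WT and 0.503, 0.247 and 0.626 CPM in IRF8KO. Oligodendrocyte markers summed to 371 to 644 CPM in WT and 559 to 725 CPM in IRF8KO, with overlapping ranges, and of 6 tested among 12, 1 was called, Cnp (edgeR). Cnp, a myelin enzyme, fell, with 175, 204 and 253 CPM in WT and 64.9, 53.3 and 40.1 CPM in IRF8KO, while Mbp, a myelin protein that was not called, had 192, 57.3 and 252 and 569.7, 552 and 421 CPM. The part of oligodendrocyte RNA in the level of Tppp was not tested. Ocln and Ildr1, proteins of epithelial and endothelial tight junctions, had at most 6.30 and 17.4 CPM in WT. Endothelial markers moved in both directions: of 5 tested among 12, 2 were higher and 1 lower, and the list summed to 35.6 to 67.1 CPM in WT and 239 to 306 CPM in IRF8KO. Most of the sum in IRF8KO was Pltp, at 13.7, 3.78 and 10.8 CPM in WT and 238, 172 and 175 CPM in IRF8KO. Pecam1, an adhesion protein of endothelium and leukocytes, fell, with 25.2, 27.4 and 16.9 CPM in WT and 1.01, 2.1 and 3.88 CPM in IRF8KO. Kdr, a receptor for vascular endothelial growth factor that was not tested, had 9.59, 11.9 and 0.253 CPM in WT and 0, 0.37 and 0 CPM in IRF8KO, and Cdh5 and Esam had at most 0.548 and 1.64 CPM in WT and 0 counts in IRF8KO. The part of endothelial cells in the levels of the junction genes was not tested. Arhgap5, a GTPase-activating protein, had 39.7, 25.3 and 3.29 CPM in WT and 0.168, 1.23 and 0.626 CPM in IRF8KO. WT replicate 3 was low in that gene as well, at 4.88 times the IRF8KO mean. Arhgef25, a guanine nucleotide exchange factor, and Shroom1, an actin-binding protein, stayed under 1 CPM in each IRF8KO library.

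Enzymes, membrane and trafficking proteins gave 6 members. Atp8a2, a phospholipid flippase best known from neurons and photoreceptors, had 148, 139.8 and 63.7 CPM in WT and 0.503, 0.247 and 2.63 CPM in IRF8KO. Its paralogue Atp8a1 had 87.7, 58.1 and 24.4 CPM in WT and 27.7, 75.1 and 38.4 CPM in IRF8KO and was not called (edgeR, adjusted p = 0.73). Neuronal markers summed to 1.11 to 13.4 CPM in WT and 47.8 to 67.1 CPM in IRF8KO. The part of neuronal RNA in the level of Atp8a2 was not tested. Eva1a, a membrane protein linked to autophagy, had 32.9, 30.6 and 8.61 CPM in WT and 0 counts in IRF8KO, while its relative Eva1b rose, from 24.7 ± 4.34 to 132 ± 6.49 CPM (SD, n = 3; log2 fold change 2.39 (SE 0.33), edgeR adjusted p = 5.3e-04). Gatm, the first enzyme of creatine synthesis, had 34.5, 35.6 and 7.85 CPM in WT, and its 16 IRF8KO counts lay in replicate 2. Duoxa1, which matures the dual oxidase Duox1, had 6.85, 10.8 and 9.12 CPM in WT and 0 counts in IRF8KO, although Duox1 itself had at most 0.184 CPM in any library. Tom1l1, an endosomal adaptor, had 17.3, 26.9 and 6.46 CPM in WT and 2 counts in IRF8KO. The last 5 members, Unc5cl, Dyrk4, Ttc9, Armcx2 and Sh2d6, had WT means from 4.23 to 8.01 CPM and between 0 and 2 counts in IRF8KO.

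Counts left in IRF8KO were not spread evenly over its libraries. Of the 22 members with more than 3 IRF8KO counts, 8 had them all in 1 library: 5 in replicate 2 (Chst8, Mrc2, Ptprm, Gatm and Rnf128), 2 in replicate 3 (Trpv4 and Adora3) and 1 in replicate 1 (Ildr1). In replicate 2 the monocyte markers summed to 103 CPM against 16.3 and 14.5 CPM in replicates 1 and 3, and S100a9 had 0, 78.5 and 0.125 CPM. The part of those cells in the counts left was not tested. Only 10 members had a count in every IRF8KO library. The 3 with the highest IRF8KO means were Plxdc2, Egr1 and Notch4.

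Among WT libraries, replicate 3 was the lowest for 34 of the 54 members (63.0%) and the highest for 13, and it was the lowest for 64.6% of all tested genes. The ratio to the other WT libraries moved with GC content. The log2 ratio of WT replicate 3 to the mean of WT replicates 1 and 2 had a Spearman correlation of 0.649 with the GC content of the longest transcript across the 54 members, which share their libraries, and of 0.625 across 10467 tested genes. Median GC was 57.0% in the 13 members highest in WT replicate 3 and 49.2% in the 34 lowest in it. The widest spreads among WT libraries were those of Egr1, Arhgap5 and Gimap6, with ratios of highest to lowest of 135, 12.1 and 5.78, and the narrowest those of Mycl, Klk8 and Mmp28. Of the 35 members with a count in IRF8KO, 33 stayed at least 30-fold lower against WT replicates 1 and 2 alone and 25 against WT replicate 3 alone.

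**Figure D3:**
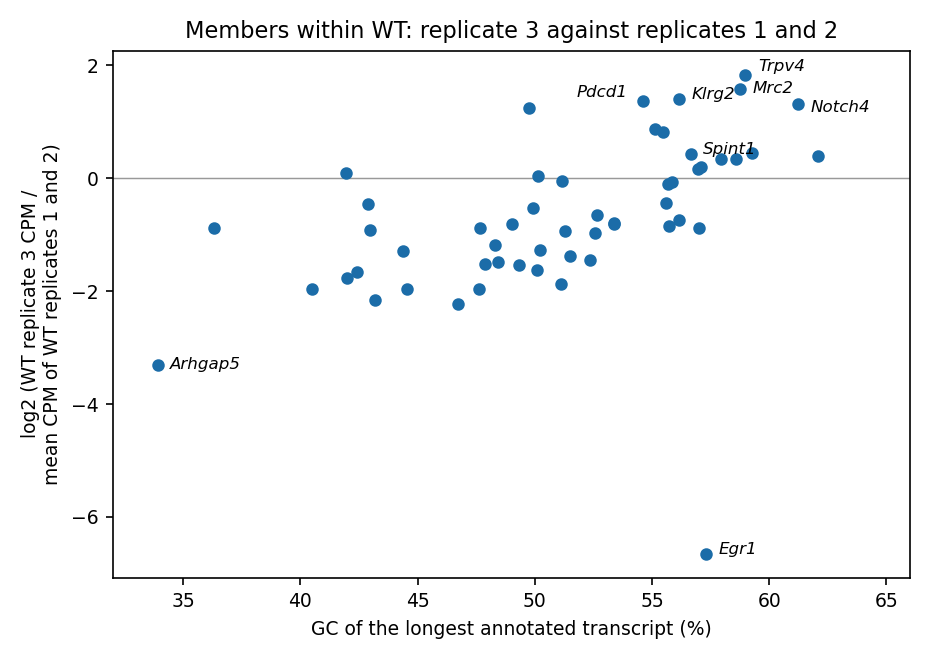
For each of the 54 members, the log2 ratio of CPM in WT replicate 3 to the mean of WT replicates 1 and 2 (vertical) against the GC content of the longest annotated transcript (horizontal, %). Trpv4, Mrc2 and Notch4 lie above 0 at high GC and Arhgap5 below it at the lowest GC, while Egr1 lies far below 0 at 57.3% and Gimap1, at 57.0%, also lies below 0.

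The members' median exonic length was 4149 bases against 4521 for 10338 tested protein-coding genes, and their median GC content was 51.4% against 50.1%. They lay on 18 chromosomes, with at most 6 on any of them, and 4 pairs lay within 1 Mb of each other, of which Gimap1 and Gimap6 were the nearest. Scaled by length, WT levels spanned 0.455 CPM per kb for Postn to 176 CPM per kb for Egr1, with Spint1 at 173, Ly86 at 103 and Klk8 at 64.2. More than 10% of the exonic length was shared with another gene in 7 members: Gimap1, P3h2, Klk8, Adora3, Duoxa1, Atp8a2 and Mmp28.

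Genes with the same symbol stem as a member, 360 in the files and 186 of them tested, were called lower in 27 cases (14.5%) and higher in 13 (6.99%), where 9.46% and 9.64% of all tested genes were called. The median log2 fold change was −0.40 against −0.11 for all tested genes. A shared stem is a matter of naming and need not mark a gene family. The stems Rnf and Ttc alone gave 57 and 22 of the tested genes. The lower ones were fewer without IRF8KO replicate 1 or 3 or WT replicate 2 (14, 11 and 16), and the higher ones numbered 7, 8 and 8 without IRF8KO replicate 1 or 3 or WT replicate 1 and 22 without WT replicate 3. Chst7, a sulfotransferase as Chst8 is, had 227, 222 and 279.8 CPM in WT and 14.3, 17.1 and 18.3 CPM in IRF8KO, and Chst1 fell from 40.2 ± 19.7 to 1.79 ± 0.759 CPM (SD, n = 3). Tnfrsf21, death receptor 6, fell from 632 ± 162 to 79.4 ± 22.7 CPM, and Arhgap22 from 171 ± 21.7 to 14.0 ± 3.88 CPM. Their log2 fold changes lay between −4.62 and −2.95, with adjusted p between 2.6e-05 and 4.0e-04 (edgeR), and all 4 kept their calls without any 1 library.

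Other relatives rose. Mrc1, the mannose receptor of border macrophages and relative of Mrc2, rose from 3.8 ± 1.25 to 48.9 ± 30.5 CPM (SD, n = 3), which is a log2 change of 3.67 (SE 0.44). Unc119, which shares only its stem with Unc5cl, had 0, 0.0922 and 0.253 CPM in WT and 38.1, 35.3 and 50.1 CPM in IRF8KO, and Arhgef7 had a log2 fold change of 1.74 (SE 0.30). Adjusted p were 2.1e-04, 1.2e-05 and 0.002 (edgeR), and these calls held without any 1 library. Families were mixed: Slamf8, a myeloid receptor, fell with Slamf6, at 36.2, 25.8 and 23.6 CPM in WT and 3.19, 0 and 0 CPM in IRF8KO, while Slamf9 had 87.4, 99.8 and 121 and 134, 134 and 152 CPM and was not called. Gimap9, at 4.11, 7.01 and 1.52 CPM in WT, had 0 counts in IRF8KO, below the WT minimum of the rule in WT replicate 3. Slamf8 lost its call without 1 library (edgeR, highest adjusted p = 0.0564). Naip2, of the same family as Naip6, fell as well, with a log2 fold change of −2.39 (SE 0.46) (edgeR adjusted p = 0.0039). Sequence shared by Naip2 and Naip6 was not measured. Slamf8, Slamf9, Gimap9 and Naip2 were named after their values were seen.

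**Figure D4:**
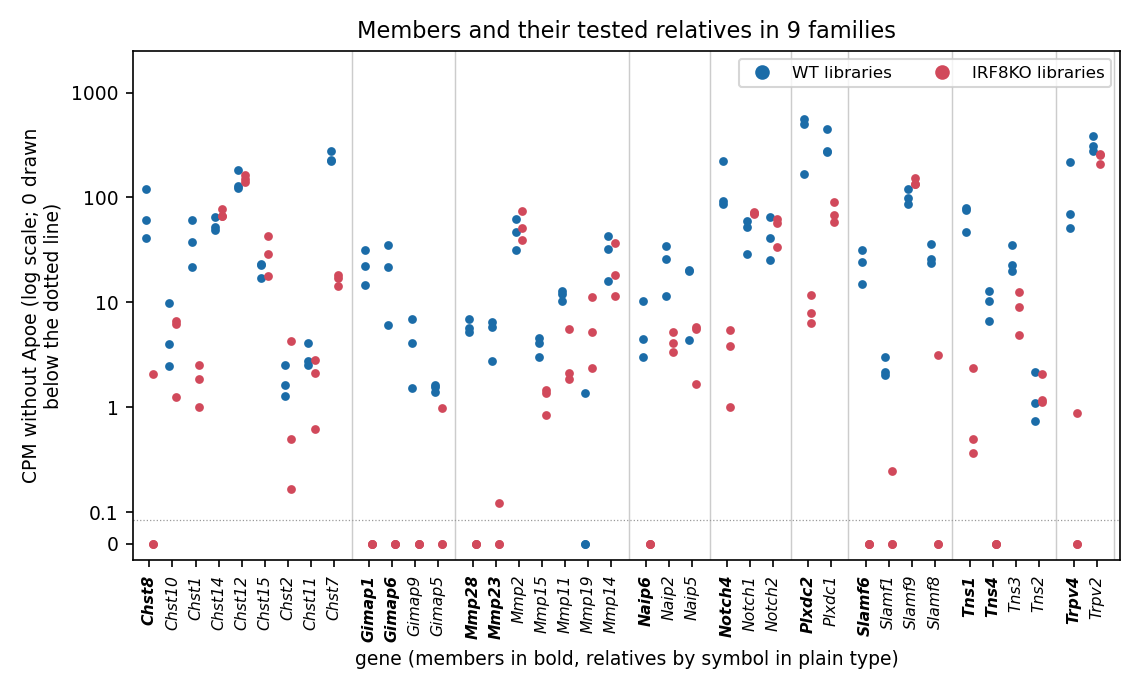
CPM in the 3 WT (blue) and 3 IRF8KO (red) libraries for members (bold) and tested genes of the same symbol stem in 9 families, on a log scale with 0 at the bottom. The 9 families were picked for display. Members such as Trpv4 and Notch4 have IRF8KO values far below WT. Relatives such as Trpv2, Notch1 and Slamf9 do not, while Chst1, Slamf8 and Gimap9 also lie far below WT.

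The nearest protein-coding neighbours of the members on either side numbered 108, and 46 of them were tested. Of these, 10 were lower (21.7%) and 1 was higher, against 9.46% and 9.64% of all tested genes, with a median log2 fold change of −0.39. Dtx3, beside Arhgef25, had 32.9, 37.1 and 21.9 CPM in WT and 5.37, 7.15 and 5.26 CPM in IRF8KO (log2 fold change −2.34 (SE 0.37)), and Trit1, beside Mycl, had 47.1, 47.9 and 14.8 and 3.52, 11.5 and 9.39 CPM (−2.11 (SE 0.46)). Both kept their calls without any 1 library, while Gtf2h2 and Gspt1 lost theirs without IRF8KO replicate 3 (edgeR, adjusted p of 0.065 and 0.052). The neighbour that rose was F13a1, a border-macrophage marker beside Ly86, with 0 counts in WT and 4.87, 6.41 and 7.64 CPM in IRF8KO. The number of lower neighbours was 4 and 2 without IRF8KO replicate 1 or 3 and 5 without WT replicate 2, and that of higher ones was 2 without IRF8KO replicate 3 and 4 without WT replicate 3.

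Of the homeostatic microglia genes, 35 were tested and 19 were lower (54.3%) and 2 higher (5.71%), with a median log2 fold change of −1.29 against −0.11 for all tested genes. None of the members is on that list. Adgrg1, an adhesion receptor, fell from 3116 ± 548 to 164 ± 25.8 CPM (SD, n = 3). Pros1, the bridging protein S, and Golm1, a Golgi membrane protein, had log2 fold changes of −3.64 (SE 0.49) and −2.21 (SE 0.32). Adjusted p of these 3 lay between 4.4e-05 and 6.6e-04 (edgeR), and they kept their calls without any 1 library. Fcrls and Ltc4s were the 2 that rose, with adjusted p of 0.022 and 0.043 (edgeR), and both lost their calls without WT replicate 1 or 2 or IRF8KO replicate 1 or 3. Without IRF8KO replicate 3 the lower genes numbered 12, and without WT replicate 3 the higher ones numbered 4.

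At the edge of the rule, the members nearest the limit with more than 3 IRF8KO counts were Arhgef25, Ptprm and Arhgap5, with ratios of WT to IRF8KO means of 31.4, 33.6 and 33.7. Fcrlb, with 3 counts, had 32.4. Just outside lay Gm13889, Slamf1 and Xlr, with ratios of 29.5, 29.5 and 27.1. Slamf1, a sister of Slamf6, had 2.19, 3.04 and 2.03 CPM in WT and 0, 0.247 and 0 CPM in IRF8KO, a level at which a single count decides its side.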

How the data were processed

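RNA of sorted microglia was counted in 3 WT and 3 IRF8KO libraries. Per the submitters' processing notes, STAR 2.5.2b, Picard 2.17.11, bcl2fastq, Subread and featureCounts were used, with no role given, on build mm10. The authors deposited raw counts per gene in STAR's layout, 4 summary lines and then an unstranded count (used here) and the counts of each strand. The annotation release they counted with is not given in the sources used here. Of 49585 genes, 49326 matched GENCODE M21 (GRCm38), which gave symbols, positions and transcript sequences. Counts of overlapping genes are uncertain, since counting ignored strand, and counts of near-identical copies are uncertain as well.

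CPM were computed from counts without the summary lines and without Apoe. The test was that of edgeR 4.0.16 under R 4.3.3 (filter with a minimum count of 10, TMM scaling, quasi-likelihood test, genotype as the single term, Benjamini-Hochberg over 11041 genes, threshold 0.05). The script was tested on simulated data. Folds against 0 counts use a floor of 3 counts over the group. Ratios with 1 to 3 counts have exact 95% binomial intervals. SE were derived from the F statistic. Alternatives were DESeq2 1.42.0, other scalings, filters and strands, a replicate block and leaving out each library.

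Members, lists and rules were chosen with earlier results of these data known. By rule, the members described singly are the 24 with the highest WT means, those with 0 counts in IRF8KO, and the 3 at each extreme of IRF8KO level, WT spread and ratio, and the others are given by role, counts, ratios or range; values of single libraries for any of those were added after they were seen. Companions are the 4 with the smallest p in each direction with at least 5 CPM in 1 group. Other genes are named where they bear on a member, and 1 companion that the rule names is not reported here. Promoter windows are from RefSeq (GRCm38.p6), matched for 44 members. Libraries of equal replicate number were not treated as pairs in the main test.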

Additional observations from a re-analysis of the deposited data

How the results depend on the processing

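With the same genes left out, the rule gave 54 genes as reported, 85 at a ratio of 1/20 in place of 1/30, 41 at 1/50, 68 with a WT minimum of 1 CPM, 41 with 5 CPM, 77 with Apoe in the totals and 52 with TMM scaling, which lost Ildr1 and Mmp23. Leaving out 1 library gave 52 to 96 genes. Of the 54 members, 53 were called with the counts of column 3 and 53 with those of column 4, all 54 under the other settings with 6 libraries, and leaving out 1 library gave 52 to 54 calls, with Ocln and Sh2d6 lost without IRF8KO replicate 3 and Fcrlb without IRF8KO replicate 1. Scaling by library size alone gave 1908 lower and 651 higher genes over all tested, 46 lower and 6 higher relatives, 1 higher dendritic cell gene and 1 higher homeostatic gene. Library size without Apoe gave 6 lower and 2 higher neighbours and 0 lower collagen genes. DESeq2 and the stranded counts of column 3 gave 2 higher neighbours each, and no filter gave 3, with 3 higher protease genes. Column 3 also gave 1 lower dendritic cell gene and 1 higher homeostatic gene, and column 4 gave 1 of each, with 1 lower and 1 higher collagen gene.

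Over the fits that left out 1 library, all called genes numbered 910 to 4003 (386 to 1835 lower, 524 to 2168 higher). The ranges were 11 to 37 lower and 7 to 22 higher relatives, 2 to 13 lower and 1 to 4 higher neighbours, 12 to 22 lower and 0 to 4 higher homeostatic genes, 1 to 2 lower and 1 to 3 higher dendritic cell genes, 0 to 2 lower and 1 to 5 higher collagen genes, and 1 lower and 1 to 2 higher protease genes. The replicate block gave 2353 called genes and 2 higher neighbours. Deviations from group means correlated at −0.26, 0.33 and 0.11 for libraries of equal number. With 3 libraries per group, the deviations must sum to 0, so these values cannot show whether equal numbers pair the libraries. P4ha2 lost its call in 11 of 13 alternatives, Ltc4s in 7, Itgb1 in 6 and P4ha1 in 5. The cause of these shifts was not tested. Depth limits members at low levels: 1 count is 0.123 to 0.168 CPM in IRF8KO, and 13 members had a WT library under 5 CPM.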
